A study of Mus musculus with 6 samples.

Results

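The genes described here are 9 regulators of histone methylation: Ezh1, Ezh2, Suz12, Eed, Jarid2, Kdm5a, Kdm5b, Kdm6a and Kdm6b. Arid3a peaks were taken for each gene from its body and 10 kb on either side, on the mm10 mouse build, in 6 CUT&Tag libraries. When the peaks of all libraries were merged into regions (overlap of at least 1 bp), 46 of 79295 regions fell in these windows. All 9 genes had at least 1 region.

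Arid3a is a DNA-binding protein with an AT-rich interaction domain (ARID). CUT&Tag uses an antibody to bring a transposase to a chromatin protein, and the DNA cut out around it is sequenced. It was applied to 10000 primary vascular smooth muscle cells per assay, from mice and bought from a supplier. Libraries NC 1, 2 and 3 are labelled as treated with a negative control siRNA, and libraries siRNA 1, 2 and 3 as treated with siRNA #1, #2 and #3 against Arid3a, 24 h after transfection by the protocol. That protocol also describes angiotensin II given for 36 h as a cell model of abdominal aortic aneurysm, with untreated controls, and the labels do not say which libraries were exposed. Separate cultures are not stated for the 3 libraries of either group, so p-values measure only the spread between libraries, which may be technical. The labels give 1 library to each siRNA, so in that group differences between siRNAs cannot be told from differences between libraries. A CUT&Tag peak does not measure the Arid3a transcript, so the knockdown was not checked here. None of the 6 libraries is a control without the Arid3a antibody. Peaks from unspecific cutting by the transposase can therefore not be told from peaks of Arid3a.

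Polycomb repressive complex 2 (PRC2) places methyl groups on lysine 27 of histone H3, a mark of silenced developmental genes. Ezh2 and Ezh1 are its alternative catalytic subunits, Suz12 and Eed are core subunits without which the enzyme is not active, and Jarid2 is an accessory subunit that helps bring the complex to chromatin. Kdm6a (UTX) and Kdm6b (JMJD3) remove methyl groups from the same lysine, while Kdm5a and Kdm5b remove them from lysine 4 of histone H3, a mark of active promoters. Jarid2, Kdm5a and Kdm5b carry an ARID of their own, which relates them to Arid3a by that domain.

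Each library gave between 43834 and 51682 peaks. For every peak the number of fragments at its summit and the local background were solved from the deposited fold and p-value. Background coverage was 0.621 to 0.673 fragments per base for NC 1 to 3 and 0.475 to 0.538 for siRNA 1 to 3, so group and coverage cannot be told apart. Summit fragments were therefore also given after scaling each library to the regions that all 6 share (scaled summit fragments). The names written inside all 6 peak lists belong to the opposite group. For that reason the text writes of NC-labelled and siRNA-labelled libraries, and if the names inside the lists were correct, every direction between the groups would be the opposite. At gene starts, 3 of 7 contractile smooth muscle markers had a peak in all 6 libraries, and none of 6 endothelial, 5 leukocyte or 6 cardiac and skeletal muscle markers did. Among the endothelial markers Tek had one in 2 NC-labelled and 2 siRNA-labelled libraries and Kdr in 1 library, both low (at most 6.08 scaled fragments). The remaining 4 endothelial markers, and all leukocyte and cardiac and skeletal muscle markers, had none. Myh11, a defining marker of mature smooth muscle, had no such peak in any library, and Lmod1 had one in NC 1 alone. Cnn1 and Myocd had one in all 3 NC-labelled libraries and in 1 siRNA-labelled library each. These peaks were low too (scaled fragments of 9.86 to 13.2 for Cnn1, 8.50 to 13.1 for Myocd and 9.86 for Lmod1). The share of all genes with the pattern of Cnn1 and Myocd was not counted. A peak does not measure expression, and the part of these markers in the results below was not tested.

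Of the 46 regions, 20, called shared regions here, had a peak in all 6 libraries (43.5%, against 37.3% of all regions). A further 15 had a peak in 1 library only (32.6%, against 30.2%), and 2, 2, 3 and 4 regions had one in 2, 3, 4 and 5 libraries. The shared regions were mostly stronger than the single ones, with some overlap: summits held 9 to 116 fragments in the former and 5 to 20 in the latter. Part of this follows from the classing, since a shared region must pass the caller's threshold in all 6 lists. The caller's −log10 q ran from 5.60 to 75.7 in shared regions and from 1.34 to 8.63 in regions of 1 library. No region was one-sided, with a peak in all 3 libraries of a group and in no library of the opposite group, where the share over all regions was 0.608% for NC-labelled only and 0.342% for siRNA-labelled only. More NC-labelled than siRNA-labelled libraries had a peak at 13 regions (28.3%, against 27.8% of all regions), and the reverse held at 9 (19.6%, against 25.0%).

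**Figure D1:**
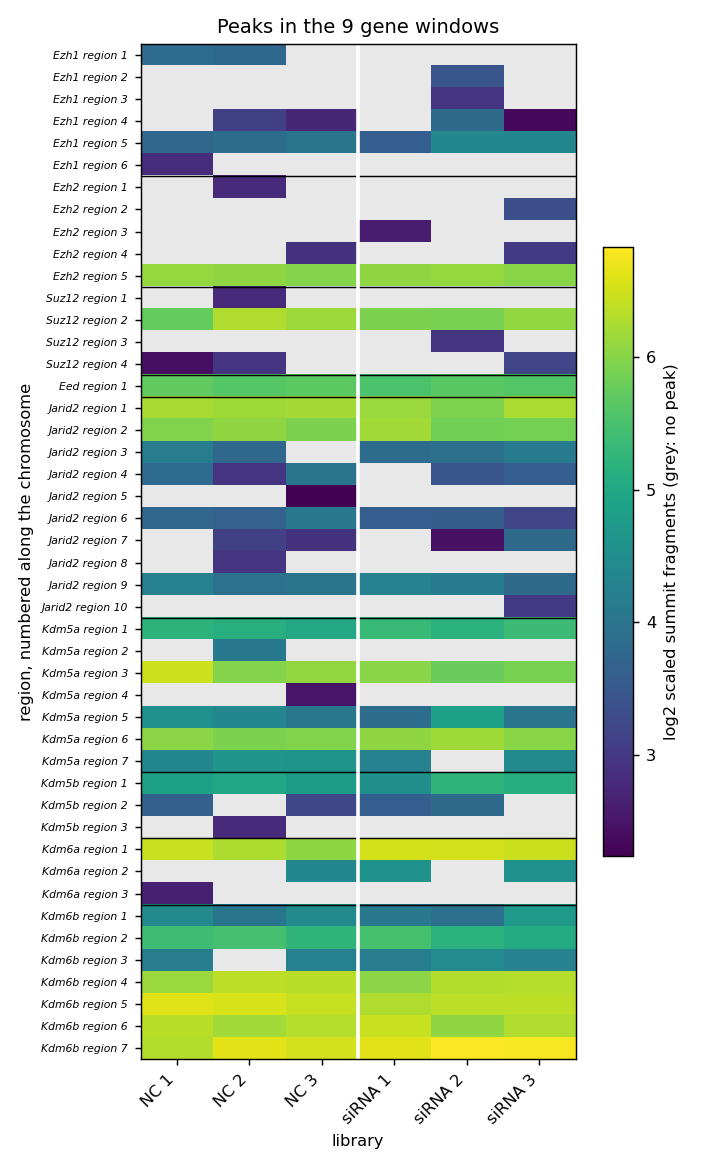
Each row is 1 of the 46 regions, numbered along the chromosome within each gene window, and each column is 1 library. Colour gives log2 scaled summit fragments and grey marks no peak. The 20 rows filled in all 6 columns include all of the brightest rows, and no row is filled in the 3 columns of a group while grey in the 3 of the opposite group.

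By position, 10 regions touched a gene start (1000 bp on either side, or either end of the gene where no strand was given), 23 lay elsewhere in a gene and 13 in the flanks. Of these, 7, 8 and 5 had a peak in every library. Other annotated genes overlapped 13 of the 46 regions, so some peaks cannot be assigned to 1 gene. Ezh2, Suz12, Eed, Jarid2, Kdm5a and Kdm6a had a start peak in all 6 libraries, which is 6 of 9 genes (66.7%, against 45.1% of 21896 protein-coding genes). For Kdm5a and Kdm6b, which have no strand here, this means a peak at either gene end. Ezh1 had one in 1 library, Kdm5b in 4 and Kdm6b in 2, or in 6 with windows of 2500 bp. The 21896 protein-coding genes include 9379 without a start peak in any library. Genes of like expression or CpG count were not compared.

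**Figure D2:**
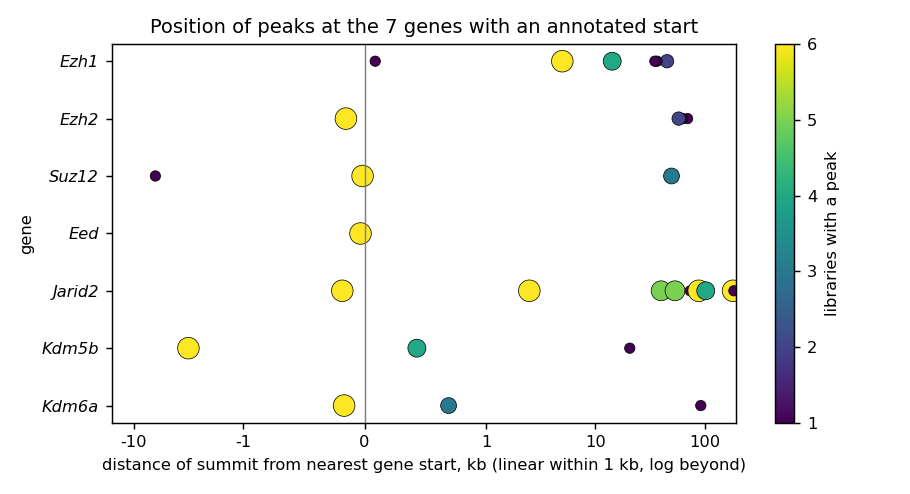
Summit position of each region relative to the nearest annotated start, in kb along the direction of transcription, for the 7 genes with an annotated start; the axis is linear within 1 kb and logarithmic beyond. Point size and colour give the number of libraries with a peak. The regions of Ezh2, Suz12, Eed, Jarid2 and Kdm6a at the start are found in all 6 libraries, while those of Ezh1 and Kdm5b at the start are not.

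The promoter sequences below are shown because Suz12 and Eed had a peak over the whole stretch in all 6 libraries, Jarid2 in 4 of 6, and Ezh1 in none. Each is the 250 bases before the annotated start in RefSeq (GRCm38.p6, the assembly of mm10), written 5′ to 3′ in the direction of the gene. Capitals mark matches, on either strand, to GGGCGG, the GC box. They also mark CCAAT, a motif common in promoters. TTCCCGC, an E2F-type motif, is marked too. The sequences of Eed and Ezh1 hold no match, and no match overlaps another. They lie at chr11:79992856-79993105 on the plus strand (Suz12), chr7:89980977-89981226 on the minus strand (Eed), chr13:44730524-44730773 on the plus strand (Jarid2, the first of 2 starts) and chr11:101226464-101226713 on the minus strand (Ezh1).
Suz12: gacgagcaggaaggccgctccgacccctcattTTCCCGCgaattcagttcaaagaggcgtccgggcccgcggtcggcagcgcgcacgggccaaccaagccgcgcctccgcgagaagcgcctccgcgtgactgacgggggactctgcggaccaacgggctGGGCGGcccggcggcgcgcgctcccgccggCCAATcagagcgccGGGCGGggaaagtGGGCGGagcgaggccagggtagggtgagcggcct
Eed: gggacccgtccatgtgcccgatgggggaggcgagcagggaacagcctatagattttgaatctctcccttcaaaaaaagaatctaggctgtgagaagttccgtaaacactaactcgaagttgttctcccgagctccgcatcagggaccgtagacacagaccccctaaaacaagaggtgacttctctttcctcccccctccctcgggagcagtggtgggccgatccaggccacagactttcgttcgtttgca
Jarid2: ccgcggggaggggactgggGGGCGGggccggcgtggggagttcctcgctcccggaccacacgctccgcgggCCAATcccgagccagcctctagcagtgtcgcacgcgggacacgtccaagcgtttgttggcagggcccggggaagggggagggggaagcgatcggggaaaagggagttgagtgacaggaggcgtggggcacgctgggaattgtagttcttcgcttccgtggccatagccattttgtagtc
Ezh1: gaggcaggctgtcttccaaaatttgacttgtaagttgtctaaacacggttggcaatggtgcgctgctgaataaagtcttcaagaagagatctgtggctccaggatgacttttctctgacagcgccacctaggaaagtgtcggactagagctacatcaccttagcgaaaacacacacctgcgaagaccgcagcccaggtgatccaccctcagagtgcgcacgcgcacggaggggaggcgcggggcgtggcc

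The Suz12 sequence was 73.6% G and C with 37 CpG dinucleotides, above 98.1% of promoters in CpG count. It held GGGCGG 3 times and CCAAT and TTCCCGC once each. The Jarid2 sequence was 67.2% G and C with 23 CpG and held GGGCGG and CCAAT once each. The window before the second Jarid2 start, not shown, was 64.8% G and C with 22 CpG and held GGGCGG once. That window had a peak over the whole stretch in all 6 libraries. Eed (54.4%, 12 CpG) and Ezh1 (55.2%, 14 CpG) were alike in these measures, and differed in that Eed had the peak and Ezh1 did not. The median of 32841 promoter windows was 52.4% and 6 CpG. GGGCGG occurs in 32.7% of those windows, CCAAT in 33.9% and TTCCCGC in 3.82%, so a match by itself is common except for the last. Of the other members, the Ezh2 window held CCAAT or its reverse complement ATTGG 3 times, and those of Kdm5b and Kdm6a held GGGCGG once each. The ARID of Arid3a is known to prefer AT-rich DNA. The AT-rich words ATTAAA and ATCAAA were in none of the windows of the 7 members matched, where 12.7% and 10.6% of all windows hold them. Kdm5a and Kdm6b had no entry.

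Among the catalytic subunits, Ezh2 carried a strong peak at its start and Ezh1 did not. Ezh2 (gene ID 14056) lies on the minus strand of chromosome 6, 47530274 to 47595270. Its region 5, from 47594247 to 47595647, spans the start, with the median summit at -153 bp (negative values are upstream), and also overlaps the gene F830010H11Rik. Summits held 77, 78 and 67 fragments in NC 1 to 3 and 55, 63 and 64 in siRNA 1 to 3. After scaling the means were 66.4 ± 2.93 and 66.8 ± 1.98 (SD, n = 3 each), and the groups overlapped. The fold over background was 12.6, 12.2 and 12.7 against 11.8, 12.6 and 12.1, which is nearly the same height in every library. The log2 difference, siRNA-labelled minus NC-labelled, was 0.01 with a 95% interval of -0.25 to 0.26 (limma adjusted p = 0.989). The other 4 regions of Ezh2 were weak: 3 had a peak in 1 library each, and region 4 in NC 3 and siRNA 3 with 8 fragments each. The highest of them by fold was region 2 in the gene body, at 5.13 in siRNA 3.

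Ezh1 (gene ID 14055) lies on the minus strand of chromosome 11, 101191115 to 101226463. At its start only NC 1 had a peak, region 6 (101226164 to 101226453), with 8 fragments, a fold of 3.40 and a −log10 q of 2.14. That value ranked at the 2.29 percentile of peaks in its own list. The region shared by all libraries was region 5 in the gene body, from 101220958 to 101221680, with its summit 4987 bp past the start. It held 15, 17 and 17 fragments against 10, 19 and 20, with folds of 5.77, 6.23 and 7.15 against 6.72, 9.05 and 8.87. Scaled means were 14.7 ± 1.3 and 17.7 ± 4.85 and overlapped, and the log2 difference was 0.22 (95% interval -0.23 to 0.68, limma adjusted p = 0.773). Region 1, 45265.5 bp past the start and inside the neighbouring gene Cntnap1, had 16 fragments in NC 1 and NC 2 and no peak elsewhere. It was the member region nearest to a one-sided pattern, and it counts as one when NC 3 is left out. Ezh1 was 1 of 2 genes with over 10 regions per 100 kb of window (10.8, against a median of 4.92 for protein-coding genes), though 3 of its 6 regions had a peak in 1 library. Region 4, in the gene body, had a peak in NC 2, NC 3, siRNA 2 and siRNA 3 with 10, 7, 13 and 5 fragments.

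The core subunits Suz12 and Eed each had 1 shared region, and it sat on the start. Suz12 (gene ID 52615) lies on the plus strand of chromosome 11, 79993106 to 80034123. Its region 2, from 79992602 to 79993954, had its summit at -16 bp and the highest mean fold of the 46 regions, 13.0. Summits held 60, 91 and 76 fragments in NC 1 to 3 and 50, 55 and 67 in siRNA 1 to 3, and folds were 11.9, 14.5 and 13.6 against 11.4, 12.5 and 13.7. After scaling, NC 1 was the lowest of the 6 libraries (53.8) and NC 2 the highest (78.2), so the spread lay within the NC-labelled group. The means were 67.9 ± 12.6 and 62.9 ± 4.36, and the log2 difference was -0.09 (95% interval -0.37 to 0.18, limma adjusted p = 0.855). Region 4, 49731 bp past the start and beyond the gene, had 6, 9 and 9 fragments in NC 1, NC 2 and siRNA 3. The remaining 2 regions had a peak in 1 library each.

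Eed (gene ID 13626, minus strand of chromosome 7, 89954654 to 89980976) encodes the subunit that reads the methylated histone. Its window held a single region, from 89980071 to 89981496, with the summit at -40.5 bp and a peak in every library. Summits held 58, 57 and 54 fragments against 38, 46 and 48. Folds were 10.8, 9.78 and 9.59 against 10.2, 10.8 and 10.1, and the groups overlapped. Scaled means were 50.6 ± 1.55 and 48.4 ± 2.09, the lowest level among the 6 start regions. The SD over 6 libraries was also the lowest (2.07), beside 2.25 at the higher Ezh2 start. The log2 difference was -0.07 (95% interval -0.35 to 0.22, limma adjusted p = 0.914).

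Jarid2 had the most regions, 10, in the longest of the 9 genes (gene ID 16468, plus strand of chromosome 13, 44730774 to 44921643). Region 1, from 44730313 to 44731331, covers both annotated starts. Its summits held 84, 84 and 78 fragments against 58, 56 and 75, and folds were 7.42, 7.04 and 7.04 against 6.64, 6.83 and 7.61. Scaled means were 73.7 ± 1.58 and 69.2 ± 7.49, and the log2 difference was -0.09 (95% interval -0.35 to 0.16, limma adjusted p = 0.836). Region 2, 2490 bp past the second start, was nearly as high at 69, 78 and 64 fragments against 60, 53 and 58. Both had a raised local background (means of 9.33 and 9.26 fragments), and a lower fold (7.10 and 6.32) than the starts of Ezh2, Suz12 and Eed.

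Further into Jarid2 the regions were lower but recurred between libraries: of the 8 regions beyond region 2, 2 had a peak in all 6 libraries, 2 in 5 and 1 in 4, and 3 had a peak in a single library. Region 6, from 44819033 to 44819667 and 88224 bp past the second start, held 15, 15 and 18 fragments in NC 1 to 3 and 10, 11 and 9 in siRNA 1 to 3. Its folds were 8.46, 8.23 and 10.5 against 7.15, 7.43 and 6.50. Every NC-labelled library was above every siRNA-labelled library, also after scaling (14.4 ± 2.23 against 11.1 ± 1.71). Such separation with the NC-labelled libraries higher was found at 8.1% of the 29602 shared regions. The log2 difference was -0.35 (SE 0.24, 95% interval -0.82 to 0.12) and did not pass the test (limma adjusted p = 0.600).

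Kdm5a, the lysine 4 demethylase first found as a partner of the retinoblastoma protein, had 4 shared regions among 7. The gene (ID 214899) spans 120364099 to 120444574 on chromosome 6, and no strand was given for it. Region 3, from 120363183 to 120364695, lies over the end of lower coordinate and also over the neighbouring gene Ccdc77, so the peak cannot be assigned to 1 of them. Summits held 99, 73 and 72 fragments in NC 1 to 3 and 53, 50 and 59 in siRNA 1 to 3. Folds were 13.4, 11.2 and 10.6 against 11.3, 11.6 and 11.1. NC 1 stood above the other 5 libraries after scaling too, at 88.7 against 54.6 to 68.0, and the groups overlapped (73.1 ± 13.8 and 59.6 ± 4.85). The log2 difference was -0.28 (95% interval -0.55 to -0.01, limma adjusted p = 0.424), and without NC 1 it was -0.13. Region 6, in the flank of higher coordinate from 120453001 to 120453727, was as high, at 73, 71 and 66 fragments against 55, 66 and 64 and a mean fold of 10.6. Its log2 difference was 0.11 (95% interval -0.15 to 0.37, limma adjusted p = 0.810). Regions 1 and 5 were also shared by all libraries, at 33 to 41 and 12 to 26 fragments. Region 7 lacked a peak only in siRNA 2, and regions 2 and 4 had a peak in NC 2 and NC 3 alone.

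Kdm5b was the weaker of the pair, with low peaks at its start in 4 of 6 libraries. The gene (ID 75605) lies on the plus strand of chromosome 1, 134560178 to 134632878. Region 2, from 134560186 to 134560833, had its median summit 431 bp past the start. This region also overlaps the neighbouring gene Mgat4e, so its peaks cannot be assigned to 1 gene. It had a peak in 4 libraries, with 14 and 10 fragments in NC 1 and NC 3 and 10 and 13 in siRNA 1 and siRNA 2. Its −log10 q was at most 4.49, and at a minimum of 5 neither Kdm5b nor Ezh1 had a start peak in any library. The shared region lay at -3159 bp, from 134556621 to 134557188, inside the neighbouring gene Mgat4e. It held 32, 37 and 29 fragments against 19, 34 and 34, with siRNA 1 the lowest of the 6. The mean fold was 8.89 ± 0.27 against 9.52 ± 2.19, and the log2 difference was 0.08 (95% interval -0.29 to 0.45, limma adjusted p = 0.920). Region 3 had a peak in NC 2 alone.

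The lysine 27 demethylases Kdm6a and Kdm6b had the highest scaled summits of the 9 genes, in different places. Kdm6a, an X-linked subunit of the MLL3 and MLL4 methyltransferase complexes (gene ID 22289), lies on the plus strand of chromosome X, 18160862 to 18279936. Region 1, from 18161815 to 18162972, had its summit at -168 bp from the annotated start. It held 97, 89 and 70 fragments against 76, 84 and 87, with folds of 13.3, 12.0 and 10.6 against 12.7, 13.3 and 13.0. Unscaled, the groups overlapped. After scaling, each siRNA-labelled library (92.3, 91.8 and 88.2) was above each NC-labelled library (87.0, 76.4 and 66.1), a separation found in that direction at 7.73% of shared regions. The log2 difference was 0.25 (SE 0.12, 95% interval 0.01 to 0.49, limma adjusted p = 0.414) and was -0.04 without scaling. Region 2, with its summit 692 bp past the start, had a peak in NC 3, siRNA 1 and siRNA 3 with 22, 20 and 23 fragments. Region 3, in the gene body, had a peak in NC 1 alone with a fold of 4.79.

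Kdm6b, whose transcript is known to rise quickly after inflammatory stimuli, was the most densely covered of the genes. The gene (ID 216850) spans 69398508 to 69420367 on chromosome 11, with no strand given. Its 7 regions make 16.7 per 100 kb of window, at the 94.6 percentile of protein-coding genes, and 6 of them had a peak in every library. The highest was region 7, from 69418769 to 69419371, near the end of higher coordinate, with its median summit at 69419030. Regions 6 and 7 also overlap the gene Gm51903, so their peaks cannot be assigned to 1 gene. It held 88, 116 and 97 fragments against 81, 104 and 109. Scaled means were 90.0 ± 10.5 and 107.5 ± 8.10 and overlapped, and the log2 difference was 0.26 (95% interval 0.03 to 0.48, limma adjusted p = 0.365; -0.04 without scaling). Region 5, from 69410519 to 69412123 in the gene body, held 108, 109 and 91 fragments against 64, 76 and 82. Its NC-labelled libraries were all above the siRNA-labelled ones after scaling (92.1 ± 5.61 against 81.3 ± 3.13). Separation in that direction was found at 8.1% of shared regions. The log2 difference at region 5 was -0.18 (95% interval -0.41 to 0.05, limma adjusted p = 0.592). Region 2, in the flank of lower coordinate and over Cyb5d1, Naa38 and Tmem88, had the highest mean fold of the 7, 6.58, with 47, 52 and 40 fragments against 37, 33 and 33. Regions 4 and 6 of the gene body were also high in every library, at 54 to 97 and 61 to 91 fragments. Region 1 in the flank held 14 to 26, and region 3 lacked a peak only in NC 2.

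**Figure D3:**
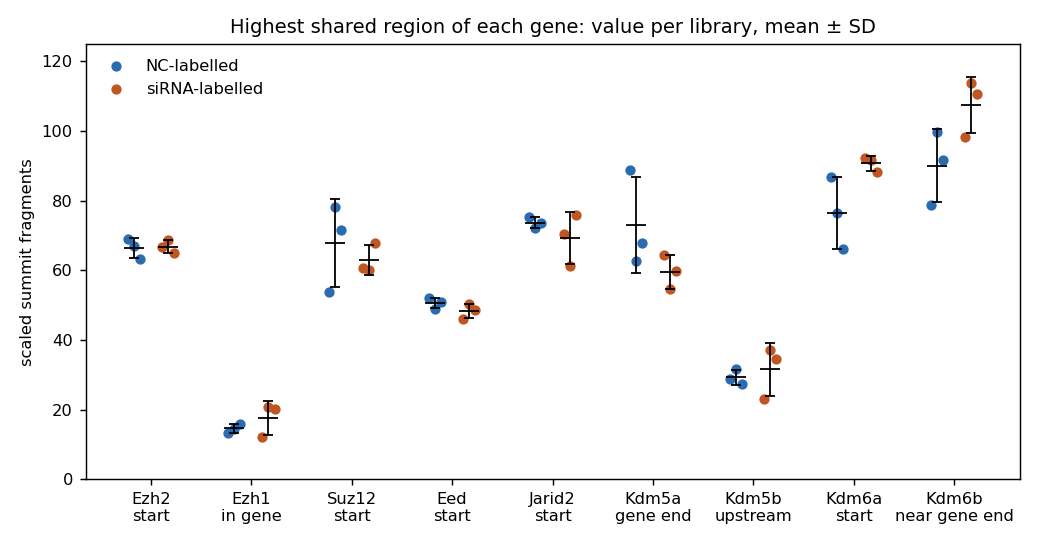
Scaled summit fragments (vertical axis) at the shared region of each gene with the highest value, with 1 point per library and bars for the mean ± SD of 3 libraries. Kdm6b and Kdm6a are the highest and Ezh1 the lowest; the groups separate only at Kdm6a, where the siRNA-labelled points lie above.

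The Kdm6b body differed from the starts of the other genes in how summit and background related. Its 4 shared regions inside the gene had mean scaled summits of 76.8 to 98.8, and mean folds of only 4.09 to 6.17. Their mean local background was 15.4 to 20.8 fragments, where the median over shared regions was 2.61 and the 95 percentile 10.3. At the start regions of Ezh2, Suz12, Eed, Jarid2, Kdm5a and Kdm6a, mean scaled summits of 49.5 to 83.6 went with folds of 7.10 to 13.0 and a background of 4.02 to 9.33. Ranking by fold would thus put Suz12 at the top and Kdm6b near the bottom, and ranking by summit fragments the reverse for Kdm6b. The deposited fold is set against that local background, and the part of neighbouring peaks in it was not tested.

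**Figure D4:**
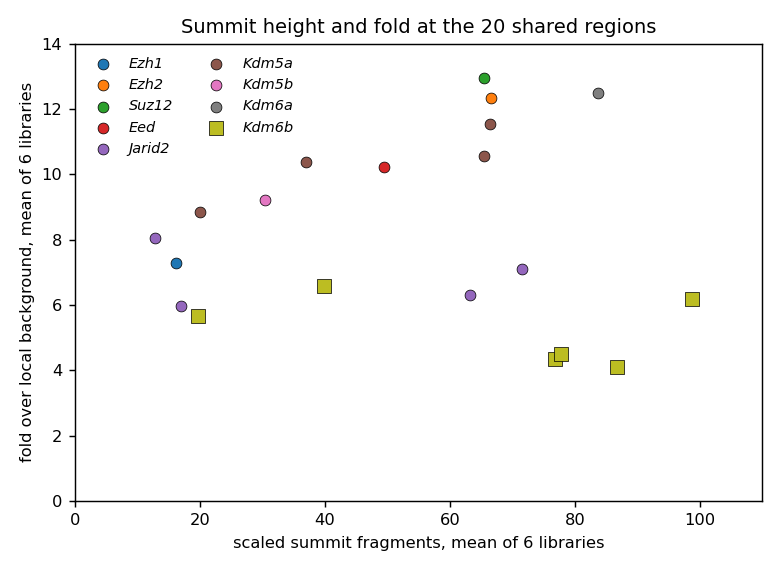
Mean scaled summit fragments (horizontal) against mean fold over local background (vertical) at the 20 shared regions, means of 6 libraries, coloured by gene. The Kdm6b squares to the right, between 76.8 and 98.8 fragments, lie at folds of 4.09 to 6.17, below the start regions of Suz12, Ezh2 and Kdm6a.

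Over 6 libraries the start regions ordered as Kdm6a (83.6 ± 10.3 scaled summit fragments, mean ± SD), Jarid2 (71.5 ± 5.43), Ezh2 (66.6 ± 2.25), Kdm5a (66.4 ± 11.8), Suz12 (65.4 ± 8.88) and Eed (49.5 ± 2.07). The libraries of each neighbouring pair from Kdm6a to Suz12 overlapped. Eed was the only gene whose highest library (52.0) lay below the lowest library of every other (53.8 for Suz12). The reference was the 9805 protein-coding genes with a start region shared by all 6 libraries, whose median was 35.9. All 6 start regions were above it, from the 67.5 percentile for Eed to the 87.6 percentile for Kdm6a. The genes with the most similar start values over the 6 libraries, by Euclidean distance of log2(scaled summit fragments + 1), were H3c15 and Cap1 for Ezh2, at 0.13 and 0.14. For Suz12 they were Psph and Cct6a (both 0.26), for Eed Psmb1 and Samd14 (0.11 and 0.12), and for Jarid2 Larp4 and Zfp90 (0.13 and 0.16). For Kdm5a they were Pigv and E2f1 (0.23 and 0.27), and for Kdm6a Trap1 and Cse1l (0.18 and 0.25). These distances describe likeness in level and in its pattern over libraries together.

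Across the 9 windows the number of peaks did not separate the groups, and the length they covered did. The windows held 29, 32 and 30 peaks in NC 1 to 3 and 28, 32 and 31 in siRNA 1 to 3, both with a mean of 30.3. The peaks covered 20031, 20445 and 20824 bp in NC 1 to 3 and 16607, 18042 and 18817 bp in siRNA 1 to 3. Over the whole lists the covered length differed in the same direction (27.4 to 27.7 against 22.5 to 25.4 Mb), as did the background coverage, and the part of coverage in the narrower peaks was not tested.

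None of the 20 shared regions passed the test between the groups in the fit over all 29602 shared regions (limma on log2(scaled summit fragments + 1), Benjamini-Hochberg adjusted p under 0.05). Over all regions 27 were called higher in the siRNA-labelled libraries (0.0912%) and 37 lower (0.125%). With 1 library left out the calls over all regions numbered between 12 and 381, the latter without siRNA 1, and none was a member region. Without scaling for coverage 2 member regions passed, Kdm5a region 3 (-0.57, limma adjusted p = 0.0237) and Kdm6b region 5 (-0.47, limma adjusted p = 0.0364), where the median of all regions was itself -0.29. An unadjusted p under 0.05 was found at 3 of the 20 (Kdm5a region 3, Kdm6a region 1 and Kdm6b region 7), against 11.3% of all regions, and the lowest adjusted p among them was 0.365. The median log2 difference was -0.04, with 8 positive and 12 negative values, beside -0.00087 over all regions. The scaling itself sets the median of all regions near 0, so the fit cannot see a change common to all shared regions. That median was -0.29 without scaling and 0.094 with scaling by background coverage. The intervals limit what could be missed relative to the shared regions as a whole. That of Ezh2 reached from -0.25 to 0.26, while that of the weak Jarid2 region 6 reached to -0.82. An interval that includes 0 does not show that the groups are alike.

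**Figure D5:**
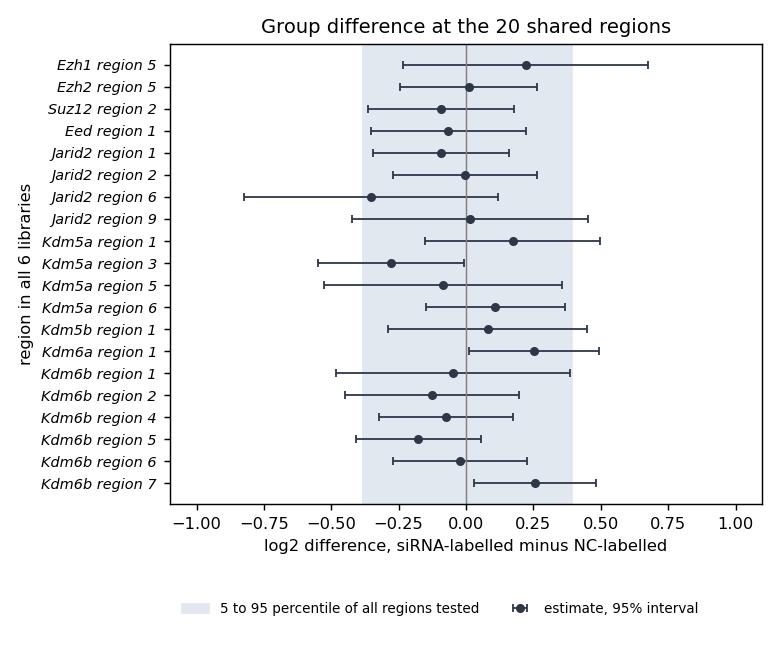
Log2 difference in scaled summit fragments, siRNA-labelled minus NC-labelled, at the 20 shared regions, with 95% intervals of the limma fit. The shaded band runs from the 5 to the 95 percentile of all regions tested (-0.38 to 0.39), and all 20 estimates lie within it.

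The wider machinery around these genes had start peaks in most cases. Of 56 further genes, 42 had one in all 6 libraries (75.0%, beside 45.1% of protein-coding genes, not matched for expression or CpG count). These were 7 of 10 PRC2 accessory genes, 18 of 23 genes of PRC1 (the Polycomb complex that ubiquitylates histone H2A), and 7 of 8 genes of the deubiquitinase that removes that mark. They also included 3 of 6 other histone demethylase genes and 7 of 9 partners of Kdm6a in the MLL3 and MLL4 complexes. Aebp2, Cbx2, Phc1 and Kdm1a had a start peak in 5 libraries. The missing one was siRNA 1, the library with the fewest peaks, for Aebp2, Phc1 and Kdm1a, and siRNA 2 for Cbx2. Over the 684 protein-coding genes with a start peak in exactly 5 libraries, the missing library was siRNA-labelled for 65.2% and siRNA 1 for 38.5%. Of the 4 member regions with a peak in 5 libraries, Jarid2 region 3 and Kdm6b region 3 lacked an NC-labelled library, and Jarid2 region 4 and Kdm5a region 7 a siRNA-labelled one. Aebp2 was high where it had a peak, at 50.2, 51.5 and 52.9 scaled fragments in NC 1 to 3 and 45.9 and 35.5 in siRNA 2 and siRNA 3. A library without a called peak is not shown to lack fragments there. Epop and Bcor had a start peak in 1 siRNA-labelled library each. Ezhip, Bmi1 (a core subunit of canonical PRC1), Bcorl1, Asxl3, the Y-linked Kdm5d and Uty, Ncoa6 and Ash2l had none.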

How the data were processed

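The labels give 6 CUT&Tag libraries of Arid3a, 3 per group. Per the submitters' processing notes, Bowtie2, Picard, MACS2 and the mm10 build were used; for versions and parameters the sources used here give nothing. The authors deposited, for every peak, its interval and summit, a whole-number score, a fold over local background (a ratio) and 2 columns of −log10 values, for the p-value and for the q-value. Peaks were called per library. Fold and q-value describe peaks within 1 list. The score entered no result.

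From fold and p-value, with the caller's pseudocount of 1, a whole number of summit fragments and a background were solved within a relative tolerance of 0.002, for 100.0% of peaks of every list. These fragments are the depth behind each value, and total reads were not used here. Peaks were merged into regions with an overlap of at least 1 bp. Summit fragments were scaled by the median of ratios over the 29602 regions found in all 6 libraries. Groups were compared with limma 3.58.1 (R 4.3.3, trend) on log2(scaled summit fragments + 1), with Benjamini-Hochberg adjustment over all 29602 regions; the other steps used Python 3.11.15 with numpy 2.4.6, pandas 2.3.3 and scipy 1.17.1. The scripts were tested on simulated data. Mean chi-square per region over all 29602 regions was 0.691 to 0.825 for pairs of libraries of 1 group and 0.815 to 1.00 between the groups. Over regions with a mean of at least 50 summit fragments it was 0.757 to 0.828 for the NC-labelled pairs and 0.763 for siRNA 2 and 3. There it was 1.16 and 1.12 for siRNA 1 with siRNA 2 and 3, and 1.05 to 1.54 between the groups. The NC-labelled libraries and siRNA 2 and 3 were kept as separate samples, which is an assumption, with siRNA 2 and 3 averaged as an alternative. Planned permutation tests of totals over the 9 windows are not given, since the genes were chosen with results known.

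Gene positions, starts and promoter sequences came from RefSeq tables of GRCm38.p6, which gave a start for 7 of the 9 genes; both ends were used for the other 2. Windows were 1000 bp either side of a start. The genes, gene lists and markers were chosen with earlier results of these data known. For each gene, values are given for the highest region by mean fold at the start and elsewhere, and for the region with the largest difference among those whose groups did not overlap; other regions named were chosen after their values were seen. The 2 nearest genes of each start were taken by distance over 6 libraries, and of the wider lists only genes with a start peak in under 6 libraries are named. Alternatives changed scaling, pseudocount, low values, peak threshold, window, overlap and replicates.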

Additional observations from a re-analysis of the deposited data

How the results depend on the processing

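Of 216 values recomputed under alternative settings, 185 were graded as unchanged. The covered length and the named regions had to keep their direction, and the named regions also their side of the threshold. The difference in peak number and the member median had to stay within the spread between libraries. Counts only had to stay near the reported value, so that 79 calls with background coverage scaling were graded as unchanged from 64. Without scaling, 3010 of 29602 regions were called (4 higher and 3006 lower, against 27 and 37 as reported), the median of all regions was -0.29 and the member median was -0.32. In that setting 2 member regions were called lower, Kdm5a region 3 (-0.57, limma adjusted p = 0.0237) and Kdm6b region 5 (-0.47, limma adjusted p = 0.0364), with limma adjusted p of 0.245 to 0.858 and 0.540 to 0.833 for these regions under the other alternatives. The sign turned without scaling at Ezh1 region 5 (-0.055), Ezh2 region 5 (-0.28), Kdm5b region 1 (-0.21), Kdm6a region 1 (-0.040) and Kdm6b region 7 (-0.036). With scaling by background coverage 71 regions were called higher and 8 lower, the member median was 0.061, and Suz12 region 2 (0.0041), Eed region 1 (0.031) and Jarid2 region 1 (0.0030) turned. With 1 library left out, Ezh2 region 5 ranged from -0.027 (without NC 3) to 0.035 (without NC 1) and was -0.011 without siRNA 2, Suz12 region 2 ranged from -0.25 (without NC 1) to 0.014 (without NC 2), and Kdm5b region 1 from -0.048 (without siRNA 2) to 0.28 (without siRNA 1). Ezh1 region 5 ranged from 0.095 (without siRNA 2) to 0.46 (without siRNA 1), Eed region 1 from -0.093 (without siRNA 2) to -0.033 (without siRNA 1), and Jarid2 region 1 from -0.16 (without siRNA 3) to -0.0088 (without siRNA 2). Jarid2 region 6 ranged from -0.42 (without NC 2) to -0.23 (without siRNA 3), Kdm5a region 3 from -0.38 (without NC 2) to -0.13 (without NC 1), Kdm6a region 1 from 0.15 (without NC 3) to 0.35 (without NC 1), Kdm6b region 5 from -0.23 (without NC 3) to -0.14 (without NC 1) and Kdm6b region 7 from 0.16 (without NC 1) to 0.33 (without NC 2). Kdm5b region 1 also turned with siRNA-labelled libraries 2 and 3 averaged as 1 sample (-0.022). With that averaging 30 regions were called. Leaving out 1 library gave 12 to 381 calls: 12 without NC 1, 17 without NC 2, 12 without NC 3, 381 without siRNA 1, 14 without siRNA 2 and 57 without siRNA 3. No member region was called in any of these. The cause was not tested.

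Within the gene bodies alone the difference in mean peak number was 1.67, and with 50 kb flanks it was 2.33, with 43 regions in all 6 libraries and 2 one-sided regions among 99. The count of one-sided regions was 0 to 1 with 1 library left out, and 1 without NC 3 (Ezh1 region 1). With 2500 bp windows Kdm6b had a start peak in 6 libraries in place of 2.

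Libraries share replicate numbers between the groups, and the deviations of same-numbered libraries correlated by 0.04, 0.03 and -0.02. Pairing by number was therefore not shown, and a shared culture or batch behind the numbers was not tested. With the replicate number as a block 146 regions were called and none of the 20 member regions, and the covered length differed by -2611 bp as before. Low summits limit what could be seen: 15 of the 46 regions rest on 5 to 20 fragments in 1 library.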
